A study of Mus musculus with 12 samples.

Results

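The genes described here encode matrix proteins, integrins, matrix-cutting proteases and members of the TGF-beta and PDGF families, the fibrosis side of nephritis, in kidneys with and without Aim2. They were picked by gene name from a targeted mouse panel of 770 genes, 750 endogenous and 20 housekeeping. The set took endogenous genes whose symbols start with Col and a digit, Itga, Itgb, Lam, Mmp, Adam, Thbs, Timp, Tgfb or Pdgf, with Fap, Fn1 and Loxl2 added and Mmp7 and Itgam left out. Described here are 35 genes, of which 32 were bright enough to test; no gene starting with Timp and no Fn1 was analysed here. Whole-kidney RNA came from 12 female mice aged 8 to 10 weeks, 3 in each of 4 groups. KO NTS were Aim2 knockout mice given nephrotoxic serum, which carries antibodies against the glomerular basement membrane and starts an immune glomerulonephritis, measured at day 9. WT NTS were Aim2 wild-type mice given the same serum, also at day 9. KO control and WT control were untreated mice of each genotype, for which no day is given. Strain background is not given in the labels used here. Aim2 encodes an inflammasome sensor of DNA in the cytosol; its own level was not analysed here, so nothing below checks which kidneys carry the knockout. Each sample was read as 1 mouse, since the design counts 3 mice in a group.

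Kidney fibrosis is the replacement of tubules and glomeruli by collagen-rich matrix that activated fibroblasts and pericytes lay down. TGF-beta is secreted in a latent form, is released by integrins and thrombospondin, and signals through a pair of receptor kinases, while PDGF-B drives pericytes and mesangial cells through its own receptor. Laminins and type IV collagen form basement membranes, fibrillar collagens fill the interstitium, integrins anchor cells to both, and metalloproteinases cut them.

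Values are a normalized signal that the authors scaled on housekeeping genes, with a floor in each sample at its background, so a value at the floor is only an upper bound. Each gene was read by 1 probe, and signals of different genes are not compared. The panel counted 585757 to 1426261 probe molecules above the floor per sample, with the 3 KO NTS kidneys the highest. Much of the signal in KO NTS was 1 gene, Spp1, at 692059 to 730814 of an endogenous total of 1335199 to 1346839. In KO control Spp1 was 40886 to 51626 of 596307 to 638895. The part of this in the results was not tested. Averaged over the 32 tested genes, log2 signal lay 1.12, 0.78 and 1.11 above the WT control mean in the KO NTS kidneys and 0.68, -0.16 and 0.06 above it in the WT NTS kidneys. It lay 0.25, 0.11 and 0.18 above it in KO control, and -0.02, 0.16 and -0.14 in the WT control kidneys themselves. The WT NTS kidney of replicate 1 thus stood apart from the other 2 of its group, and results that rest on it are also given without it. In whole-kidney RNA, a change in the number of cells of a type and a change in RNA per cell cannot be told apart. The panel held only 2 of 8 fixed fibroblast and pericyte markers, Thy1 and Cxcl12, and these went opposite ways. Thy1 was 113 to 184 in KO NTS, 41.7 to 110 in WT NTS and 48.7 to 52.0 in KO control, against 20.9 to 65.6 in WT control, and rose in KO NTS over KO control (1.56 ± 0.41, adjusted p = 0.00816). Cxcl12 was 395 to 773 in KO NTS, 717 to 1142 in WT NTS and 1465 to 1952 in KO control, against 1239 to 2235 in WT control, and fell in KO NTS against KO control (-1.69 ± 0.28, adjusted p = 0.000485). Differences below are log2 differences of signal + 1 with their standard error (SE), from limma fitted to all 677 tested genes, with two-sided p-values adjusted by Benjamini-Hochberg and 0.05 as the threshold.

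**Figure D1:**
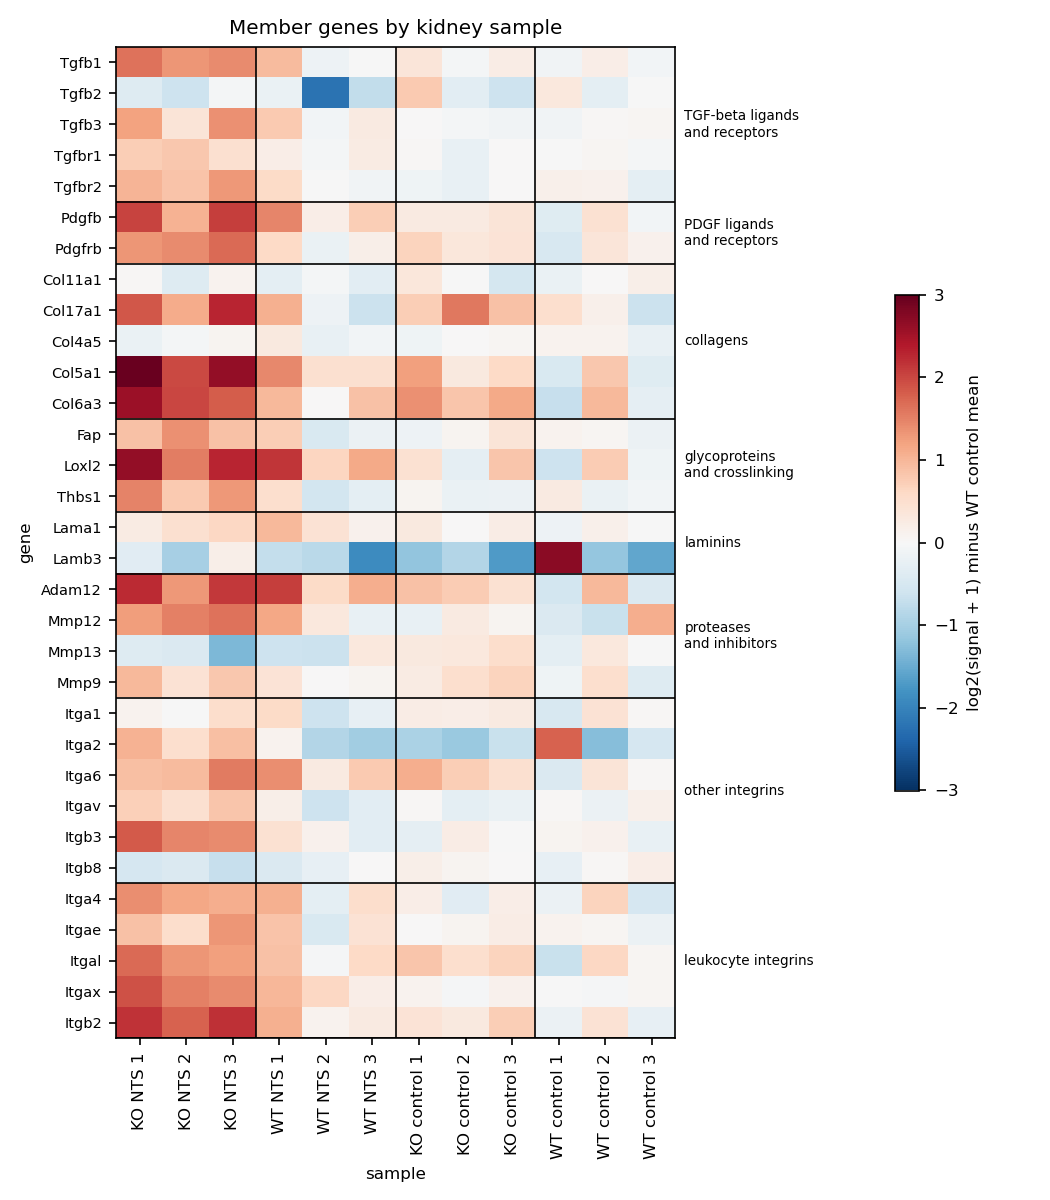
Log2(signal + 1) of the 32 tested genes (vertical axis, grouped by role) in each of the 12 kidneys (horizontal axis), minus the WT control mean of that gene; red is above and blue below it. The 3 KO NTS columns are red in most genes, and WT NTS 1 is redder than WT NTS 2 and 3.

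Nephritic knockout kidneys had higher signals than untreated knockout kidneys of the ligands Tgfb1 and Pdgfb, the collagen Col5a1, the crosslinking enzyme Loxl2, thrombospondin-1 (Thbs1) and the integrin chains Itgax, Itgb2 and Itgb3, under each of 5 scalings. Of the 32 tested genes 18 rose and 2, Itgb8 and Mmp13, fell in KO NTS against KO control, and 12 did not pass. Over all 677 tested genes 48.2% passed in this comparison, 39.6% higher and 8.57% lower. The median log2 difference was 0.97 for the 32 genes and 0.42 for all genes. The groups did not overlap in 23 of the 32, 21 above and 2 below, and in 65.6% of all genes, 51.7% above. By role, the rise took in 4 of 5 TGF-beta genes, both PDGF genes, all 3 glycoprotein and crosslinking genes, 3 of 5 leukocyte integrins and 3 of 6 other integrins. It took in 2 of 4 proteases, 1 of 5 collagens and 0 of 2 laminins. Leaving out any 1 kidney gave 16 to 22 calls. The 8 genes named first held their calls in every alternative run. Fap, Itgae and Itgax reached the brightness filter, at least 20 in at least 3 kidneys, only through the KO NTS kidneys, and without these 3 the counts were 16 rising and 2 falling of 29.

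In wild-type kidneys, 0 of the 32 genes passed in WT NTS against WT control with limma, where 7.98% of all genes did, 5.47% higher and 2.51% lower. Of the 32 genes 6 had an unadjusted p under 0.05, against 22.5% of all: Loxl2 (1.31 ± 0.46, adjusted p = 0.108), Adam12 (1.24 ± 0.46, adjusted p = 0.125), Itga6 (0.82 ± 0.30, adjusted p = 0.124), Itgax (0.60 ± 0.23, adjusted p = 0.144), Pdgfb (0.80 ± 0.34, adjusted p = 0.185) and Tgfb2 (-1.05 ± 0.47, adjusted p = 0.205). The median difference was 0.18 for the 32 genes and 0.08 for all, and Itgax alone had no overlap between groups, above, against 19.8% of all genes, 12.6% above. Without WT control 2, the highest of its group in all 3 genes, Adam12 (1.73, adjusted p = 0.0214), Col6a3 (1.11, adjusted p = 0.0462) and Loxl2 (1.68, adjusted p = 0.0409) passed. Without WT NTS 2, Itga6 passed (1.10, adjusted p = 0.0463). The missing calls do not show that wild-type kidneys kept these genes level: for Tgfb1 the 95% interval of the log2 difference was -0.29 to 0.80, and for Col5a1 -0.11 to 1.71.

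**Figure D2:**
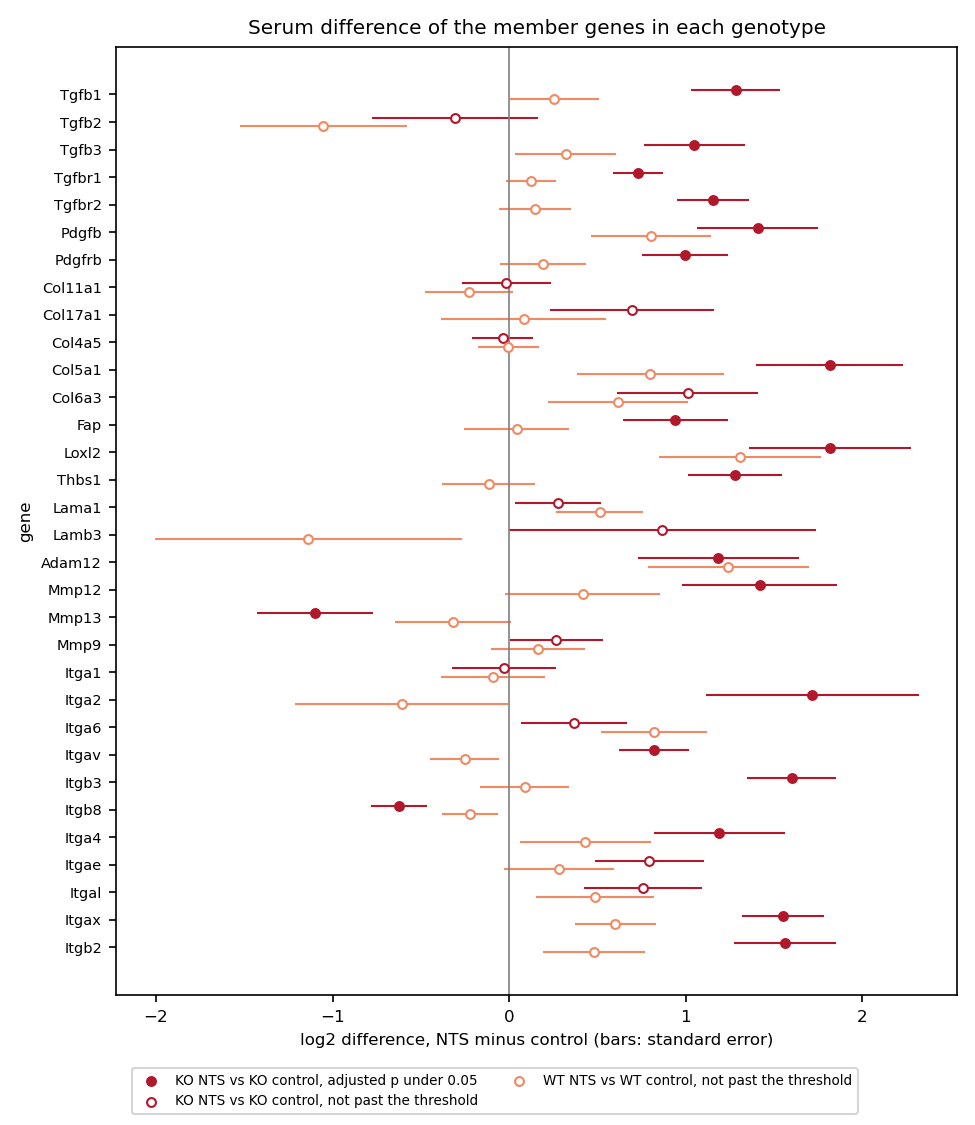
Log2 difference of NTS minus control kidneys (horizontal axis, bars are the standard error) for each of the 32 tested genes (vertical axis), in KO (dark red) and WT (orange) mice; filled points passed an adjusted p of 0.05. In KO mice 20 points are filled, with Itgb8 and Mmp13 left of 0, and in WT mice 0 are.

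Between the nephritic kidneys, 14 of the 32 genes were higher in KO NTS than in WT NTS and 0 were lower, where 33.5% of all genes passed, 31.2% higher and 2.36% lower. They were Col5a1, Col6a3, Col17a1, Fap, Itgal, Itgav, Itgax, Itgb2, Itgb3, Pdgfrb, Tgfb1, Tgfbr1, Tgfbr2 and Thbs1. Without Fap, Itgae and Itgax the count was 12 of 29. With limma 18 of the 32 had an unadjusted p under 0.05, as did 44.3% of all genes. The median difference was 0.88 for the 32 and 0.45 for all genes, and 18 of the 32 had no overlap, all above, against 42.5% of all genes, 39.1% above. This comparison and that of KO NTS with KO control share the KO NTS kidneys, so a gene that passed in both is not independent evidence. Without WT NTS 1, which lay nearest to KO NTS, 21 were higher and 1, Itgb8, was lower, and Itga2, Itga4, Itgae, Loxl2, Mmp12, Pdgfb and Tgfb3 joined the higher ones. The 6 calls that held in every alternative run were Col5a1, Itgb2, Itgb3, Pdgfrb, Tgfb1 and Thbs1; the split was 6 higher to 3 lower after median centring, where 11.4% of all genes were higher and 14.3% lower, and 7 to 4 after quantile normalization, where 13.3% were higher and 14.3% lower.

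Of the TGF-beta genes, the ligands Tgfb1 and Tgfb3 and both receptors rose in KO NTS over KO control, 4 of the 5 measured, beside 39.6% of all genes. Tgfb1 and both receptors, 3 of the 5, were also higher in KO NTS than in WT NTS, beside 31.2% of all genes. With the deposited scaling none of the 5 passed the test in WT NTS against WT control, beside 7.98% of all genes. Tgfb1, the ligand best known for driving scar formation, had signals of 1345, 1100.2 and 1161 in KO NTS, 840.5, 391 and 433 in WT NTS, 559, 418 and 508 in KO control, and 408, 498 and 410.5 in WT control. Every KO NTS kidney lay above every other kidney, and WT NTS 1 was the highest of the rest. The difference was 1.28 ± 0.25, adjusted p = 0.00136 against KO control, and 1.20 ± 0.25, adjusted p = 0.00584 against WT NTS. Its promoter, shown because it holds the most GC boxes among the windows scanned for these genes, lies at chr7:25686752-25687051 (plus strand, GRCm38.p6) in RefSeq's promoter table. Capitals mark the 6 GC boxes (GGGCGG, read on both strands). A GC box is a motif that the general factor Sp1 is known to bind.
Tgfb1: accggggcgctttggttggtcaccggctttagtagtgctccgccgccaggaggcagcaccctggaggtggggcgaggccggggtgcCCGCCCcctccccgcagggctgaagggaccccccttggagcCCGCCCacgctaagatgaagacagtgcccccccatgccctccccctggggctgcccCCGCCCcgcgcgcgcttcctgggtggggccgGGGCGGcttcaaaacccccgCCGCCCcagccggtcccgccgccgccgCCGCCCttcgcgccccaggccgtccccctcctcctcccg

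Tgfbr1, the type I receptor kinase, had 1755, 1839 and 1465 in KO NTS, 1202, 1001 and 1233 in WT NTS, 1076, 902 and 1062 in KO control, and 1043, 1093 and 1006 in WT control. Its 3 KO NTS values stood clear of all others, with differences of 0.73 ± 0.14, adjusted p = 0.00126 against KO control and 0.56 ± 0.14, adjusted p = 0.0110 against WT NTS. Both signs turned under median centring, to -0.039 and -0.035, which sets the median gene of every kidney equal. Tgfbr2, the type II receptor that binds the ligand first, had 1296, 1161 and 1576 in KO NTS, 956, 634 and 599 in WT NTS, 592, 555 and 651 in KO control, and 718, 707 and 526 in WT control. Again the KO NTS kidneys lay above all 9 others, by 1.16 ± 0.20, adjusted p = 0.000734 against KO control and 0.90 ± 0.20, adjusted p = 0.00699 against WT NTS. After median centring neither call held, at 0.38 (adjusted p = 0.0668) and 0.31 (adjusted p = 0.176). Tgfb3, a ligand of the same family, had 166, 92.8 and 186 in KO NTS, 122, 66.7 and 86.3 in WT NTS, 71.2, 68.2 and 65.5 in KO control, and 65.9, 73.3 and 74.3 in WT control. All KO NTS values exceeded those of KO control (1.05 ± 0.29, adjusted p = 0.00956), but KO NTS 2 lay within the WT NTS range, and the difference from WT NTS was 0.67 ± 0.29, adjusted p = 0.0885. Tgfb2 averaged 222 ± 44.4 in KO NTS, 158 ± 93.9 in WT NTS and 298 ± 165 in KO control, against 286 ± 61.4 in WT control (SD, n = 3 each) and passed in no comparison with the deposited scaling. Its lowest value in any kidney was 59.4, in WT NTS 2.

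Both tested PDGF genes rose in KO NTS over KO control, as did 39.6% of all genes. The receptor was also higher than in WT NTS, as were 31.2% of all genes. Pdgfb, the B-chain ligand, had 1449, 732 and 1519.9 in KO NTS, 993, 409 and 598 in WT NTS, 432, 429 and 465 in KO control, and 278, 488 and 336 in WT control. KO NTS 2 lay within the WT NTS range while the other 2 lay above all kidneys, and the difference was 1.41 ± 0.34, adjusted p = 0.00507 against KO control but 0.91 ± 0.34, adjusted p = 0.0581 against WT NTS. Pdgfrb, its receptor on pericytes and mesangial cells, had 828, 881 and 1077 in KO NTS, 499, 289.9 and 373 in WT NTS, 529, 422 and 444 in KO control, and 236, 427 and 360.2 in WT control. No KO NTS value overlapped any other group, with differences of 0.99 ± 0.24, adjusted p = 0.00542 against KO control and 1.29 ± 0.24, adjusted p = 0.00505 against WT NTS. Pdgfa, the A-chain ligand, lay between 11.3 and 20.4 in all kidneys, at the floor in 6 of 12, and was not tested.

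The collagens split. Of 5 tested, Col5a1 alone rose in KO NTS over KO control, beside 39.6% of all genes. Of the same 5, 3 (Col5a1, Col6a3 and Col17a1) were higher in KO NTS than in WT NTS, beside 31.2% of all genes. Col4a5 and Col11a1 passed in no comparison with the deposited scaling. Col5a1, a minor fibrillar collagen that sets fibril diameter, had 317, 158 and 249 in KO NTS, 109.7, 55.3 and 55.3 in WT NTS, 94.2, 48.7 and 60.3 in KO control, and 28.7, 70.4 and 30.4 in WT control. The lowest KO NTS kidney exceeded the highest of every other group, and the mean was 3.52-fold that of KO control on the fitted scale (1.81 ± 0.42, adjusted p = 0.00368) and 3.30-fold that of WT NTS (1.72 ± 0.42, adjusted p = 0.00896). Col6a3, a chain of the microfibrillar type VI collagen, had 1045, 704 and 620.4 in KO NTS, 347, 176 and 322 in WT NTS, 459.8, 314 and 386 in KO control, and 108, 347 and 144 in WT control. KO NTS lay above every other kidney, by 1.51 ± 0.40, adjusted p = 0.0130 against WT NTS, while against KO control it missed the threshold (1.01 ± 0.40, adjusted p = 0.0527). That call against KO control was gained when WT NTS 2, WT control 1 or 2 was left out (adjusted p = 0.0121 to 0.0397), and the call against WT NTS was lost without KO NTS 1 or WT NTS 2 (adjusted p = 0.0574 to 0.0679). Col17a1, a transmembrane collagen of epithelial hemidesmosomes, had 75.7, 44.3 and 102 in KO NTS, 42.7, 17.7 and 12.3 in WT NTS, 33.9, 61.7 and 37.4 in KO control, and 28.7, 22.2 and 12.4 in WT control. It was higher in KO NTS than in WT NTS (1.68 ± 0.47, adjusted p = 0.0172) but overlapped KO control (0.69 ± 0.47, adjusted p = 0.238); the first call was lost without KO NTS 1 or 3, or without WT NTS 2 or 3 (adjusted p = 0.0550 to 0.0809). Col4a5, a chain of the mature glomerular basement membrane, averaged 341 ± 31.7 in KO NTS, 358 ± 67.1 in WT NTS and 349.7 ± 23.7 in KO control, against 357 ± 47.2 in WT control (SD, n = 3 each), with a 95% interval of -0.42 to 0.34 for the log2 difference of KO NTS from KO control. Other scalings called it lower in KO NTS: against KO control by -0.81 (adjusted p = 0.00144) after median centring and -0.68 (adjusted p = 0.00290) after quantile normalization, and against WT NTS by -0.65 (adjusted p = 0.0178) and -0.70 (adjusted p = 0.0111). Col11a1 averaged 21.9 ± 4.09 in KO NTS, 19.6 ± 2.00 in WT NTS and 22.6 ± 6.98 in KO control, against 23.1 ± 3.06 in WT control (SD, n = 3 each). Col11a2 was at the floor in 11 of 12 kidneys and was not tested.

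All 3 genes of the matrix glycoprotein and crosslinking group rose in KO NTS over KO control, beside 39.6% of all genes. Fap and Thbs1, 2 of the 3, were higher than in WT NTS, beside 31.2% of all genes. Thbs1, the matricellular protein thrombospondin-1, which can release TGF-beta from its latent complex, had 1444, 888 and 1277 in KO NTS, 734, 351 and 424 in WT NTS, 549, 453 and 459 in KO control, and 626, 453 and 491 in WT control. The KO NTS kidneys lay above all others, and WT NTS 2 and 3 had the 2 lowest values measured. The differences were 1.28 ± 0.27, adjusted p = 0.00195 against KO control and 1.30 ± 0.27, adjusted p = 0.00577 against WT NTS. Loxl2, a lysyl oxidase family enzyme that crosslinks collagen, had 620.5, 287 and 486 in KO NTS, 441, 153 and 217 in WT NTS, 136, 81.2 and 176 in KO control, and 64.0, 166 and 89.0 in WT control. Each KO NTS value exceeded each KO control value (1.82 ± 0.46, adjusted p = 0.00632), whereas WT NTS 1 reached the KO NTS range and the difference from WT NTS was 0.85 ± 0.46, adjusted p = 0.170. Fap, a surface protease of activated fibroblasts, had 26.6, 37.8 and 26.9 in KO NTS, 24.3, 10.0 and 12.3 in WT NTS, 12.5, 14.8 and 18.7 in KO control, and 15.1, 14.7 and 12.4 in WT control. It was at the floor in 7 of 12 kidneys, all outside KO NTS and among them all 3 WT control kidneys, so the size of its difference is uncertain. It reached the filter through KO NTS, since of the 9 other kidneys WT NTS 1 alone was at 20 or more, and a gene kept in this way had to be high in KO NTS. Its differences were 0.94 ± 0.30, adjusted p = 0.0200 against KO control and 1.00 ± 0.30, adjusted p = 0.0226 against WT NTS. The first was lost without KO NTS 2, KO control 1 or KO control 2 (adjusted p = 0.0516 to 0.0758), and the second without KO NTS 2, WT NTS 2 or WT NTS 3 (adjusted p = 0.0732 to 0.0986).

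**Figure D3:**
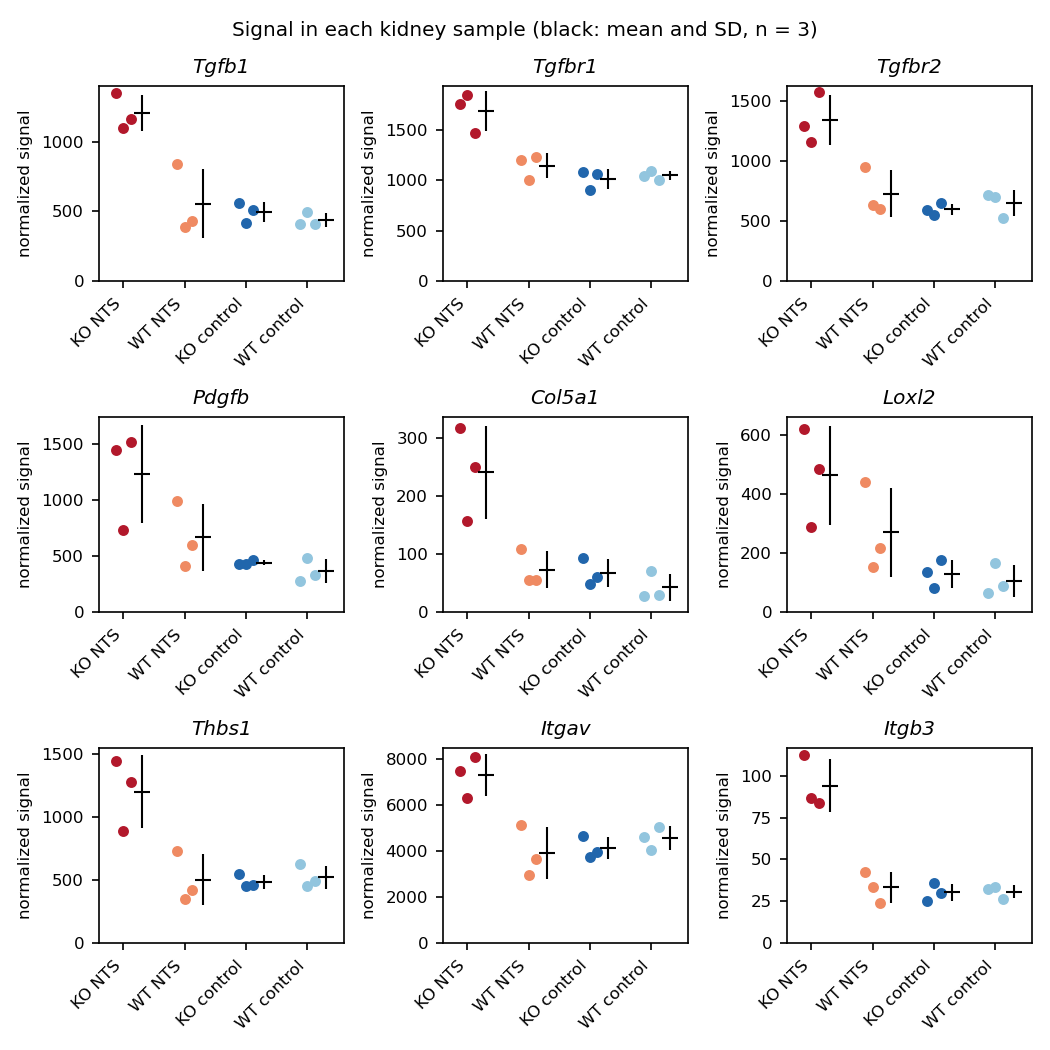
Normalized signal (vertical axis, from 0) of 9 genes in the 4 groups (horizontal axis); each point is 1 kidney, and the black dash and bar are the mean and SD of 3. In Tgfb1, both receptors, Col5a1, Thbs1, Itgav and Itgb3 the lowest KO NTS point is above the highest point of every other group, while in Pdgfb and Loxl2 the KO NTS and WT NTS points overlap.

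The 2 laminin chains described here, Lamb3 and Lama1, passed in no comparison with the deposited scaling. Lamb3, a beta chain of epithelial basement membranes, averaged 38.9 ± 15.5 in KO NTS, 22.9 ± 9.16 in WT NTS and 20.3 ± 5.92 in KO control, against 120.2 ± 176 in WT control (SD, n = 3 each), with 324 in WT control 1 against 21.2 and 15.7 in the other 2 untreated wild-type kidneys. Lama1, a chain of embryonic and tubular laminin, averaged 66.6 ± 8.97 in KO NTS, 71.4 ± 22.4 in WT NTS and 54.7 ± 5.37 in KO control, against 48.4 ± 5.51 in WT control (SD, n = 3 each).

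The proteases moved in both directions: in KO NTS against KO control Adam12 and Mmp12 rose and Mmp13 fell, of 4 tested. Of all genes 39.6% rose and 8.57% fell there. With limma 0 of the 4 passed in KO NTS against WT NTS, beside 33.5% of all genes, and Mmp12 alone had an unadjusted p under 0.05. Mmp12, macrophage elastase, had 138, 163 and 177 in KO NTS, 128, 70.9 and 48.5 in WT NTS, 48.2, 69.2 and 60.3 in KO control, and 42.0, 35.7 and 121 in WT control. Every KO NTS kidney exceeded every other kidney, and WT NTS 1 and WT control 3 stood above the rest. The differences were 1.42 ± 0.44, adjusted p = 0.0181 against KO control and 1.05 ± 0.44, adjusted p = 0.0853 against WT NTS. The first was lost without KO NTS 3 or KO control 1 (adjusted p = 0.0581 to 0.0637), and the second passed without WT NTS 1 or WT control 3 (adjusted p = 0.0205 to 0.0316). Mmp13, the main interstitial collagenase of mouse tissues, had 40.3, 38.9 and 20.1 in KO NTS, 34.0, 33.4 and 66.0 in WT NTS, 64.6, 66.0 and 76.9 in KO control, and 43.0, 65.6 and 52.4 in WT control. All 3 KO NTS kidneys lay below all 3 KO control kidneys, with a log2 difference of -1.10 ± 0.33, adjusted p = 0.0155, and overlapped WT NTS (-0.40 ± 0.33, adjusted p = 0.352). The call was lost without KO NTS 3 or KO control 3 (adjusted p = 0.0528 to 0.0766). Adam12, a membrane metalloprotease that regenerating and scarring tissues express, had 125, 64.8 and 114 in KO NTS, 111, 38.6 and 55.3 in WT NTS, 48.2, 44.4 and 35.4 in KO control, and 17.2, 51.1 and 18.9 in WT control. KO NTS exceeded KO control (1.19 ± 0.46, adjusted p = 0.0485), with a WT NTS difference from WT control of like size that did not pass (1.24 ± 0.46, adjusted p = 0.125). The KO call was lost without any 1 of 7 kidneys, KO NTS 1 or 3, WT NTS 3, KO control 1, 2 or 3, or WT control 3 (adjusted p = 0.0560 to 0.143). Mmp9, gelatinase B, averaged 28.6 ± 5.47 in KO NTS, 18.8 ± 3.06 in WT NTS and 23.5 ± 3.67 in KO control, against 17.2 ± 6.13 in WT control (SD, n = 3 each) and passed in no comparison; Mmp1a was at the floor in 10 of 12 kidneys.

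The promoters of Mmp12, Mmp13 and Itgax are shown because these 3 tested genes hold the AP-1 letters TGANTCA within 60 bases upstream of an annotated start. AP-1 is the Fos and Jun transcription factor known to act on metalloproteinase genes. The 3 genes were chosen after the matches were seen. For Mmp12 the window of another annotated start, at chr9:7344147-7344446, held 0 AP-1 matches and is not shown. The windows run from 250 bases before to 50 after the start in RefSeq's promoter table (GRCm38.p6), all on the plus strand, at chr9:7347124-7347423 for Mmp12, chr9:7272264-7272563 for Mmp13 and chr7:128129300-128129599 for Itgax. Capitals mark the match, whose first base lies at -44, -35 and -56 in that order.
Mmp12: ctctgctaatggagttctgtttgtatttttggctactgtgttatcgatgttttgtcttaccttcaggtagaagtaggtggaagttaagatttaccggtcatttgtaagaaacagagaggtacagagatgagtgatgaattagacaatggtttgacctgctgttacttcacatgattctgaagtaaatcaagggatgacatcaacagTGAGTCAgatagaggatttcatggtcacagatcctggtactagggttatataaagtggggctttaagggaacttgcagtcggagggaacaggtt
Mmp13: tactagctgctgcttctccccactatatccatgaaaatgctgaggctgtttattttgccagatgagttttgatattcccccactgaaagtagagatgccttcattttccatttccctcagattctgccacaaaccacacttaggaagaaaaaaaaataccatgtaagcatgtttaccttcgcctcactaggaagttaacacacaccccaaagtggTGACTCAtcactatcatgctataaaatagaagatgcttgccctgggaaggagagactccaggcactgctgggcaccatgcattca
Itgax: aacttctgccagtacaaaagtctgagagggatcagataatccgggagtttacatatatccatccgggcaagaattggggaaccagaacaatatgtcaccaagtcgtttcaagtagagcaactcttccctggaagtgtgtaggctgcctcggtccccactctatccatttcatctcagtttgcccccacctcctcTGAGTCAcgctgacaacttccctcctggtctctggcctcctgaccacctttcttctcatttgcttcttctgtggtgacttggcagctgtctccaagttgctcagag

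The table held 25 windows of 21 of the genes. The AP-1 letters, which read alike on both strands, were in 4 of the 25, the fourth being Mmp1a, and in 7.81% of all 32851 promoters of the table. GGGCGG was in 11 of the 25 and in 35.7% of all promoters, and the SMAD palindrome GTCTAGAC in 0 of the 25 and in 0.213% of all. No scanned window of these genes held both the AP-1 letters and a GC box. Of the 3 genes shown, Mmp12 and Itgax rose and Mmp13 fell in KO NTS against KO control.

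Among the 6 integrins not tied to leukocytes, Itgav, Itgb3 and Itga2 rose and Itgb8 fell in KO NTS against KO control. Of all genes 39.6% rose and 8.57% fell there. Itgav and Itgb3 were also higher in KO NTS than in WT NTS, beside 31.2% of all genes. Itgav, the alpha-v subunit whose heterodimers release latent TGF-beta, had 7498, 6319 and 8102 in KO NTS, 5142, 2960.2 and 3673 in WT NTS, 4678, 3747 and 3960.4 in KO control, and 4637, 4036 and 5053 in WT control. KO NTS lay above all others, and WT NTS 2 and 3 held the 2 lowest values. The differences were 0.82 ± 0.20, adjusted p = 0.00487 against KO control and 0.93 ± 0.20, adjusted p = 0.00621 against WT NTS. After median centring they were 0.05 (adjusted p = 0.815) and 0.33 (adjusted p = 0.155), and neither call held. Itgb3, a partner of alpha-v that platelets and vascular cells also use, had 112, 86.4 and 83.4 in KO NTS, 42.7, 33.4 and 24.2 in WT NTS, 25.2, 35.7 and 30.1 in KO control, and 32.5, 33.8 and 26.2 in WT control. Its KO NTS values did not overlap those of the 9 other kidneys, and they differed by 1.60 ± 0.25, adjusted p = 0.000380 from KO control and by 1.49 ± 0.25, adjusted p = 0.00500 from WT NTS. Itgb8, another alpha-v partner, known as an activator of TGF-beta, had 1898, 1994 and 1667 in KO NTS, 1973, 2276 and 2720.4 in WT NTS, 3023, 2818 and 2709.6 in KO control, and 2269.6, 2743 and 3103 in WT control. Each KO NTS value was under each KO control value (-0.62 ± 0.16, adjusted p = 0.00672); KO NTS 2 lay above WT NTS 1, and the difference from WT NTS was -0.32 ± 0.16, adjusted p = 0.139. Itga2, a collagen receptor subunit, had 89.5, 61.5 and 81.5 in KO NTS, 46.6, 22.9 and 20.4 in WT NTS, 21.9, 19.5 and 27.0 in KO control, and 149, 17.4 and 30.4 in WT control. KO NTS was above KO control (1.72 ± 0.60, adjusted p = 0.0329) and WT NTS (1.42 ± 0.60, adjusted p = 0.0880) without overlap, while WT control 1 held the highest value of all. The KO call was lost without KO NTS 1 or 3 or any 1 KO control kidney (adjusted p = 0.0551 to 0.0922). Itga1, another collagen receptor subunit, averaged 717 ± 143 in KO NTS, 613 ± 274 in WT NTS and 722 ± 19.9 in KO control, against 634 ± 196 in WT control (SD, n = 3 each). Itga6, a laminin receptor subunit, averaged 2679 ± 709 in KO NTS, 2211 ± 864 in WT NTS and 2064 ± 435 in KO control, against 1220.3 ± 336 in WT control (SD, n = 3 each); neither passed in any comparison with the deposited scaling.

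Of 5 leukocyte integrins 3, Itgb2, Itgax and Itga4, rose in KO NTS over KO control, beside 39.6% of all genes. Of the same 5, 3, Itgb2, Itgax and Itgal, were higher in KO NTS than in WT NTS, beside 31.2% of all genes. Itgb2, the common beta-2 chain of leukocyte integrins, had 252, 189 and 256 in KO NTS, 115, 59.4 and 66.9 in WT NTS, 73.3, 68.2 and 92.5 in KO control, and 48.7, 74.3 and 46.1 in WT control. The KO NTS kidneys stood above all others, by 1.56 ± 0.29, adjusted p = 0.000975 against KO control and 1.56 ± 0.29, adjusted p = 0.00500 against WT NTS. Itgax, the CD11c chain of dendritic cells and macrophages, had 60.0, 45.4 and 42.2 in KO NTS, 31.1, 24.0 and 17.5 in WT NTS, 16.4, 14.8 and 16.6 in KO control, and 15.1, 14.7 and 15.7 in WT control. Its groups were ordered without overlap from KO NTS over WT NTS to both control groups, which lay at or near the floor. Outside KO NTS only WT NTS 1 and 2 reached 20, so the gene was tested because it was high in KO NTS. KO NTS differed by 1.55 ± 0.23, adjusted p = 0.000277 from KO control and by 1.02 ± 0.23, adjusted p = 0.00718 from WT NTS, and WT NTS by 0.60 ± 0.23, adjusted p = 0.144 from WT control. Itga4, a chain of the receptor for VCAM-1, had 144, 121 and 116 in KO NTS, 115, 43.8 and 77.6 in WT NTS, 62.4, 42.2 and 62.4 in KO control, and 47.8, 86.8 and 37.7 in WT control. KO NTS lay above KO control (1.19 ± 0.37, adjusted p = 0.0185) and, barely, above WT NTS 1 (0.78 ± 0.37, adjusted p = 0.123 against WT NTS). The KO call was lost without KO NTS 1 or KO control 2 (adjusted p = 0.0634 to 0.0780). Itgal, the alpha chain of LFA-1, had 114, 87.5 and 81.5 in KO NTS, 64.0, 33.4 and 52.4 in WT NTS, 61.3, 48.7 and 55.1 in KO control, and 21.0, 53.0 and 35.6 in WT control. Its KO NTS values exceeded all others, with 0.94 ± 0.33, adjusted p = 0.0482 against WT NTS and 0.76 ± 0.33, adjusted p = 0.0801 against KO control. The call against WT NTS was lost without any 1 of 9 kidneys, all but WT NTS 1, WT control 1 and WT control 2 (adjusted p = 0.0632 to 0.178). Itgae, the alpha-E chain of tissue-resident lymphocytes, averaged 27.8 ± 8.04 in KO NTS and 18.5 ± 8.12 in WT NTS (SD, n = 3 each). Its mean was 15.2 ± 1.26 in KO control and 14.1 ± 1.46 in WT control. It was at the floor in 5 kidneys, reached the filter only through KO NTS and passed in no comparison. Against KO control it just missed the threshold with limma (0.79 ± 0.31, adjusted p = 0.0515). That call was gained without KO NTS 2, WT NTS 1 or WT NTS 2 (adjusted p = 0.0146 to 0.0333).

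Most macrophage markers moved with these integrins and with Mmp12, and the tested neutrophil markers did so against KO control but not against WT NTS. Of 10 fixed macrophage markers 8 were on the panel and tested, with 0 of 8 at the floor throughout a group. Of these 6 rose in KO NTS over KO control, beside 39.6% of all genes, and 7 were higher than in WT NTS, beside 31.2%. Cd163 did not rise, at a mean of 30.3 in KO NTS and 31.0 in KO control. The summed signal of the 8 was 2851 to 3565 in KO NTS, 755 to 1796 in WT NTS and 937 to 1028 in KO control, against 931 to 984 in WT control. Of 9 T cell markers on the panel 8 were tested, of which Cd4 alone rose, and their sum was 193 to 262 in KO NTS, 157 to 253 in WT NTS and 188 to 217 in KO control, against 156 to 195 in WT control. All 3 tested neutrophil markers, S100a8, S100a9 and Csf3r, rose in KO NTS over KO control. Against WT NTS 0 of the 3 passed (smallest adjusted p = 0.0589 with limma). Ly6g and Ceacam3 were at the floor in all KO control kidneys and in 2 of 3 KO NTS kidneys. Cxcr2, not tested, averaged 16.0 in KO NTS and 19.2 in KO control. The neutrophil sum over 6 markers was 265 to 373 in KO NTS, 135 to 276 in WT NTS and 108 to 171 in KO control, against 109 to 193 in WT control. Of 2 tested dendritic cell markers 0 passed in KO NTS against KO control. The sum over 3 on the panel was 727 to 1939 in KO NTS, 1434 to 4127 in WT NTS and 1628 to 2275 in KO control, against 2130.0 to 2486 in WT control. Most of this sum was 1 gene, Hsd11b1, at 659 to 1892 in KO NTS and 1590 to 2239 in KO control. Ccl22 averaged 45.8 in KO NTS and 28.7 in KO control, and Cd209e was at the floor in all KO NTS kidneys. Of 2 tested B cell markers 0 passed as well, and the sum over 6 was 125 to 145 in KO NTS, 103 to 115 in WT NTS and 117 to 133 in KO control, against 109 to 133 in WT control. The part of these cells in the integrin and protease results was not tested. Most kidney epithelium markers ran the other way. Egf, Fbp1, Ghr and Prlr, 4 of 5, fell in KO NTS against KO control, beside 8.57% of all genes. Epcam did not fall, at a mean of 2636 in KO NTS and 2612 in KO control. It was 2512 to 2803 in KO NTS and 974 to 2112 in WT NTS. The sum over the 5 was 16065 to 27015 in KO NTS and 44431 to 65143 in WT NTS. This sum was 78698 to 87575 in KO control and 59809 to 91100.4 in WT control. The endothelial sum was 2289 to 3393 in KO NTS, 3099.9 to 4174 in WT NTS and 4295 to 4723 in KO control, against 4104 to 4357 in WT control. Angpt1 and Kdr were lower in KO NTS than in KO control, 2 of 5, beside 8.57% of all genes. Cdh5 did not fall, at 424 to 558 in KO NTS and 422 to 436 in KO control. It was higher than in WT NTS, at 344 to 415, 1 of 5 beside 31.2% of all genes. In that comparison 2 of 5 were lower, beside 2.36% of all genes.

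**Figure D4:**
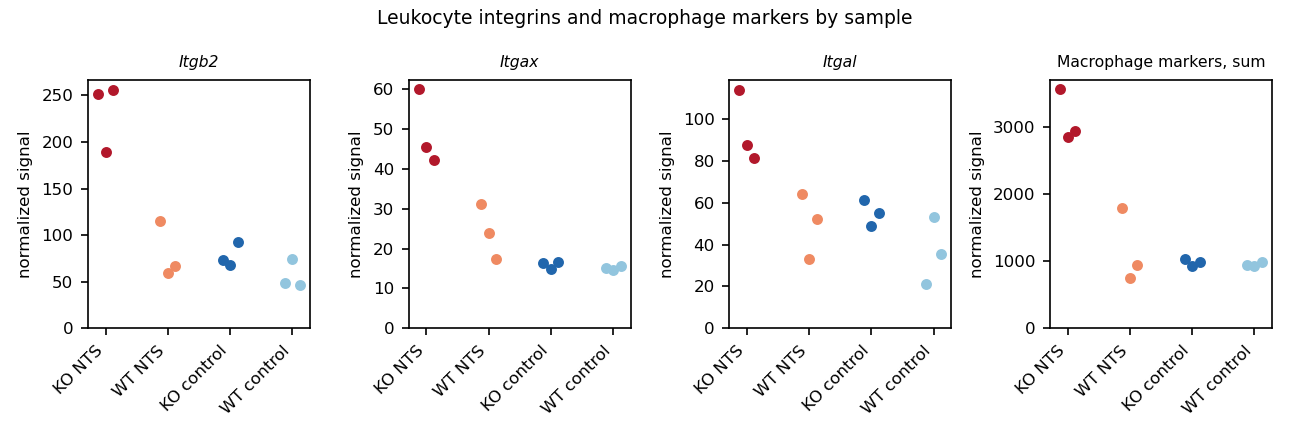
Normalized signal of 3 leukocyte integrin genes and the sum over 8 macrophage marker genes (vertical axes, from 0) in each kidney of the 4 groups (horizontal axis), 1 point per kidney. KO NTS kidneys are the highest in each panel, and WT NTS 1 is the highest of the WT NTS kidneys.

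The scaling changed how many genes counted as higher in KO NTS against KO control. With the deposited scaling 18 were higher and 2 lower, with 5 common reference genes 17 and 2, and with positive controls 19 and 0, where Itgb8 and Mmp13 no longer passed. Quantile normalization gave 12 higher and 5 lower, and median centring 8 and 6. Over all 677 genes 37.8% were higher and 9.45% lower with common reference genes, 39.9% and 2.66% with positive controls, 23.5% and 31.6% with quantile normalization, and 19.8% and 39.7% with median centring, so the panel's calls were mostly upward under the first 3 scalings and mostly downward under the other 2. Median centring ended the higher calls of Adam12, Fap, Itga2, Itga4, Itgav, Mmp12, Pdgfrb, Tgfb3, Tgfbr1 and Tgfbr2, and it called Col4a5, Col11a1, Itga1 and Tgfb2 lower beside Itgb8 and Mmp13. Against WT NTS it ended those of Col6a3, Col17a1, Fap, Itgal, Itgav, Itgax, Tgfbr1 and Tgfbr2, and it called Col4a5, Itgb8 and Lama1 lower. For KO NTS against KO control, the median of all genes was 0.42, 0.38, 0.62, -0.19 and -0.35 under those scalings in the same order. The median of the 32 genes was 0.97, 0.92, 1.16, 0.38 and 0.20, above the median of all genes under each.

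**Figure D5:**
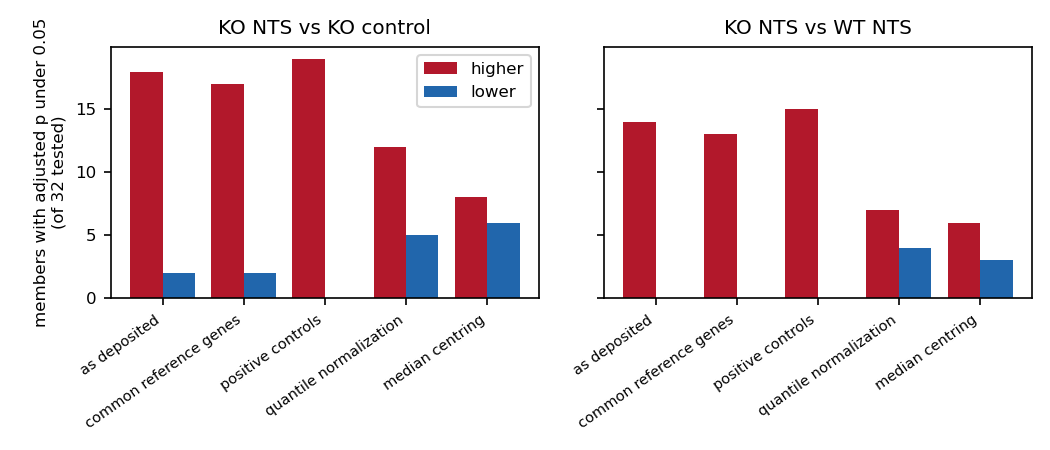
Number of the 32 tested genes with an adjusted p under 0.05 (vertical axis, from 0) under 5 scalings (horizontal axis), red for higher and blue for lower, in KO NTS against KO control (left) and KO NTS against WT NTS (right). Higher calls range over 8 to 19 on the left and 6 to 15 on the right, and lower calls over 0 to 6 and 0 to 4.

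Untreated kidneys of the genotypes gave 0 calls among the 32 genes in KO control against WT control, and 0 of 677 over the panel, with limma. Of the 32 genes 3 had an unadjusted p under 0.05, as did 8.42% of all genes: Col6a3 (1.12 ± 0.40, adjusted p = 0.575), Col17a1 (1.06 ± 0.47, adjusted p = 0.575) and Itga6 (0.77 ± 0.30, adjusted p = 0.575). Col17a1 and Itga6 lay above WT control without overlap, 2 of the 32, against 11.7% of all genes, 7.09% above. Without WT control 2, whose Col6a3 signal was 347 against 108 and 144 in the other 2, Col6a3 passed (1.60, adjusted p = 0.0202).

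The difference between the serum differences of the genotypes, KO NTS over KO control minus WT NTS over WT control, passed for 4 of the 32 genes, all larger in KO, where 10.3% of all genes passed, 9.6% larger and 0.739% smaller in KO. They were Itgb3 (1.51 ± 0.36, adjusted p = 0.0351), Itgav (1.07 ± 0.28, adjusted p = 0.0356), Thbs1 (1.40 ± 0.37, adjusted p = 0.0384) and Tgfbr2 (1.01 ± 0.29, adjusted p = 0.0459). In 2 of them, Itgav and Thbs1, the WT NTS mean lay below the WT control mean, with log2 differences of -0.25 and -0.12 that did not pass. Itgav and Itgb3 encode the 2 chains of alpha-v beta-3 integrin. Tgfb1 itself missed the threshold (1.03 ± 0.36, adjusted p = 0.0795). The calls depended on single kidneys: 0 of the 32 genes passed without any 1 of 9 kidneys (KO NTS 1 or 3, WT NTS 2 or 3, KO control 1, 2 or 3, WT control 1 or 3), 3 without KO NTS 2, 4 without WT control 2, and 11 without WT NTS 1. Under each of the 4 other scalings 0 passed, while with the deposited one 10 of the 32 had an unadjusted p under 0.05, as did 28.7% of all genes.

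Other genes of matrix turnover and TGF-beta signalling were taken from a list of 61, of which 22 were on the panel and 21 were tested. In KO NTS against KO control 8 of 21 rose and 0 fell, with a median of 0.48 beside 0.42 for all genes, where 39.6% of all genes rose. They were Spp1, the matrix protein osteopontin (3.91 ± 0.45), Vcam1 (3.59 ± 0.51) and Icam1 (1.85 ± 0.28), ligands of leukocyte integrins, and Vcan, the proteoglycan versican (2.91 ± 0.53). The others were Ctss, the elastin-cutting cathepsin S (1.96 ± 0.26), Cdh1, E-cadherin (1.05 ± 0.36), and the collagen-modifying hydroxylases Plod2 (0.66 ± 0.20) and P4ha2 (0.54 ± 0.19). In WT NTS against WT control 3 of 21 rose, Spp1 (1.65 ± 0.45), Ctss (1.18 ± 0.26) and Plod2 (1.08 ± 0.20), and 0 fell, beside 5.47% and 2.51% of all genes. Of the same 21, 6 were higher in KO NTS than in WT NTS (Cdh1, Ctss, Icam1, Spp1, Vcam1 and Vcan), beside 31.2% of all genes, 0 passed between the untreated groups, where 3 had an unadjusted p under 0.05, and 2, Spp1 and Vcan, had a larger serum difference in KO, beside 9.6% of all genes.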

How the data were processed

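Column-purified kidney RNA of 12 mice was measured, per the labels' protocols; instrument, software and run are not given in the sources used here. Values deposited by the authors are a signal scaled on housekeeping genes, whose geometric mean came to 380.1 everywhere except 384.2 in KO control 3, with a floor at each sample's geometric mean of 8 negative controls (10.02 to 15.11). Above it, values stepped by whole multiples within 0.0055; count models were not run, because values at the floor keep no count. The deposited percent of samples above a threshold was not used. A second deposited table repeated the values (largest difference 0), and 0 columns had no sample.

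Log2(value + 1) was fitted with limma 3.58.1 in R 4.3.3 over all 12 samples, with 1 mean per group and a variance trend, for genes of at least 20 in at least 3 samples (677 of 770). Adjustment of the two-sided p-values ran over the 677 genes of each of 5 comparisons. Differences on this scale understate changes of low genes. Groups and replicate numbers came from sample titles, and the fit above did not pair samples by number. Deviations of same-numbered samples correlated at -0.30 to 0.39. Differently numbered samples were not compared, so these values do not show whether the numbers mark pairs. Genes passing in any comparison are given by sample, other tested ones by mean and SD. The genes, lists and markers were chosen with earlier results of these data known. The name rule took 36 genes, of which 1 is not reported here. Of 35 accessions 34 matched RefSeq. The steps were tested on simulated data. Alternatives changed the pseudocount, the filter, the scaling (4 others), the variance trend, the replicate block or the samples fitted, and dropped each sample in turn. Dropping both WT NTS 1 and WT control 1, or every gene that a whole group held at the floor, was added after seeing the data.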

Additional observations from a re-analysis of the deposited data

Results flagged for a closer look

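The following 4 of the 32 genes had a serum difference that differed between the genotypes by the interaction term of limma, each larger in KO mice. Over all tested genes 10.3% passed, 9.6% larger and 0.739% smaller in KO mice. Under each of the 4 other scalings 0 of the 32 genes passed. The differences of log2 differences were 1.51 for Itgb3, 1.40 for Thbs1, 1.07 for Itgav and 1.01 for Tgfbr2, with adjusted p-values from 0.0351 to 0.0459. In Itgb3 the serum differences were 1.60 in KO and 0.09 in WT, in Thbs1 1.28 and -0.12, in Itgav 0.82 and -0.25, and in Tgfbr2 1.16 and 0.15. None of the 4 held in every alternative run, and each lost its call when any 1 of at least 9 kidneys was left out.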

How the results depend on the processing

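Of 38 calls of single genes, 14 held in every alternative in which the gene was fitted (23 for Itgax in KO NTS against KO control, 24 for the others), 8 in KO NTS against KO control and 6 in KO NTS against WT NTS. Leaving out 1 kidney gave 16 to 22 genes passing in KO NTS against KO control, 0 to 3 in WT NTS against WT control, 10 to 22 in KO NTS against WT NTS, 0 to 1 in KO control against WT control and 0 to 11 in the interaction. Without WT NTS 1 and WT control 1 together, 23 passed in KO NTS against WT NTS and 11 in the interaction. The interaction gave 0 with median centring, 0 with quantile normalization, 0 with common reference genes, 0 with positive controls and 1 without the variance trend; median centring gave 1, lower, in WT NTS against WT control and 9 in KO NTS against WT NTS. Median centring turned Tgfbr1 to -0.039 in KO NTS against KO control and to -0.035 in KO NTS against WT NTS. Quantile normalization turned Lama1 to -0.63 in KO NTS against KO control (adjusted p = 0.0197, against 0.28 and 0.377). The cause was not tested. Deviations of same-numbered samples correlated at -0.30 to 0.39, and differently numbered samples were not compared. With the replicate number as a block, 20 genes passed in KO NTS against KO control and 13 in KO NTS against WT NTS. With the same block 0 passed in WT NTS against WT control, 0 in KO control against WT control and 3 in the interaction. The 3 animals per group, 1 probe per gene and the floor, at which the tested genes Fap, Itgae, Itgax and Mmp9 lay in at least 2 of 3 WT control kidneys, limit what can be seen.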

Other observations

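One untreated wild-type kidney, WT control 1, stood apart in 2 genes named after their values were seen. Lamb3 was 324 there against 21.2 and 15.7 in WT control 2 and 3, and Itga2 was 149 against 17.4 and 30.4. Both signals exceeded those of every other kidney, KO NTS included. In the same kidney Adam12, Col5a1, Col6a3, Loxl2, Pdgfb and Itgal, also named after their values were seen, had the lowest of the 3 WT control values. WT control 3 lay close to it in Adam12 (18.9 against 17.2) and Col5a1 (30.4 against 28.7). In these WT control 2 was the kidney apart, at 51.1 and 70.4. The kidney epithelium marker sum was 59809 in WT control 1, 91100.4 in WT control 2 and 80824 in WT control 3.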
